A study of Mus musculus with 6 samples.

Results

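Transcript levels of 32 genes of mitosis and cytokinesis were compared between cultured mouse megakaryocytes labelled p45-/- and WT. The members were taken from a list of named genes: 10 act in mitotic entry or on the mitotic chromosome, 12 in the spindle, the kinetochore and the checkpoint, and 10 in cytokinesis or in the chromosomal passenger complex. Of these, 31 were found on the array by name and all 31 were tested, among 18211 genes tested in all; Prc1, the microtubule bundler of the central spindle, was not matched to a probe and is not analysed here. The cultures came from fetal livers of C57BL/6 embryos at E13.5, with 3 samples per group, each on its own single-colour array. The p45-/- samples carry a null genotype for p45 (gene Nfe2), the larger of the 2 proteins that form NF-E2, a transcription factor of megakaryocytes, and the WT samples are wild type; the labels give no further allele, Cre driver or treatment. The labels' source field names cultured megakaryocytes and their extraction text names whole embryos, and the labels give no purity of the cultures. The design text speaks of 3 independent experiments, so the p-values of the plain group comparison measure the spread between those together with that between arrays. Fits given below with the replicate number as a block take out the spread that same-numbered arrays share.

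Cells enter mitosis when cyclin B bound to Cdk1 is switched on by Cdc25 phosphatases and by the kinases Plk1 and Aurora A. The spindle checkpoint then holds the anaphase-promoting complex with its activator Cdc20 until each kinetochore is attached, and the passenger complex, the central spindle and a ring of actin and myosin II divide the cell. Megakaryocytes pass through endomitosis, a cycle that enters mitosis and stops before or during cytokinesis, and so they gain DNA content, and the non-muscle myosin II heavy chain gene Myh10 is known to be silenced as they do. Many of the genes of G2 and M phase carry a CHR element (cell cycle genes homology region) and CCAAT boxes, bound by NF-Y, near their start.

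Promoters of 6 members are printed from 100 bases before to 30 after the annotated start, 5′ to 3′ on the gene's strand (RefSeq, GRCm38.p6), because they show an arrangement that many of the members have, though not all, and that the rule did not use. Capitals mark the CHR core TTTGAA and the CCAAT box, on either strand (ATTGG and TTCAAA are the same words read on the other strand); a TTTGAA that follows a CCAAT can share its T.
Ccnb2, chr9:70421525-70421654, minus strand: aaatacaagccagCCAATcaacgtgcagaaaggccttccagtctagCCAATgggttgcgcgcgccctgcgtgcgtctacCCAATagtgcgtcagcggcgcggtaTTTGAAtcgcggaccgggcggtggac
Cdk1, chr10:69352883-69353012, minus strand: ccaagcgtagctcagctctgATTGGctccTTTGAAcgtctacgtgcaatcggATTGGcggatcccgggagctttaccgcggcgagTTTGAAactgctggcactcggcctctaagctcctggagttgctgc
Top2a, chr11:99024160-99024289, minus strand: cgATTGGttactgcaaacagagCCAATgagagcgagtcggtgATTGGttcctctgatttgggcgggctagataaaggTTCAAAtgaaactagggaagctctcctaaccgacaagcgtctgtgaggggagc
Cdc20, chr4:118437314-118437443, minus strand: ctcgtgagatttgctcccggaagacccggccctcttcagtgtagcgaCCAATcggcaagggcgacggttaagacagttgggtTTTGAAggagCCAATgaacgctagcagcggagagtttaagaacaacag
Racgap1, chr15:99651627-99651756, minus strand: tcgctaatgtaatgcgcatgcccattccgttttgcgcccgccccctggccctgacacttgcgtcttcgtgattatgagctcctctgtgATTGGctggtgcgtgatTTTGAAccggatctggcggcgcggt
Ccnb1, chr13:100786457-100786586, minus strand: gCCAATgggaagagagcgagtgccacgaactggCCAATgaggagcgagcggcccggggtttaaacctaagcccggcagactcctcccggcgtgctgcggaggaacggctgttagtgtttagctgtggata
Ccnb2, Cdk1, Top2a, Cdc20 and Racgap1 have the CHR core near the start with at least 1 CCAAT box beside it, and Ccnb1 has 2 CCAAT boxes and no TTTGAA in this window.

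Promoter windows of 300 bases around the start were held for 26 of the 32 members, and not for Ccna2, Cdc25c, Tpx2, Aurkb, Incenp and Kif20a. The word TTTGAA, searched on both strands, was in 19 of the 26 (73.1%), against 20.2% of the 27025 genes with a promoter in the table. The word CCAAT was in 22 of the 26 (84.6%), against 41.1%, and both words were in 18 (69.2%), against 8.97%; Birc5, Mad2l1 and Nusap1 had neither. The CHR variant TTCGAA was in 3 of the 26 (11.5%), against 1.80%. No other spelling of the CHR was searched, so a window without these words, as that of Ccnb1, is not shown to lack the element. The word TGACTCA, the core of an NF-E2 or AP-1 site, was in 0 of the 26, against 5.95% of all genes, which says only that these letters are not in these windows. The median log2 difference, p45-/- minus WT, was -0.35 in the 18 tested members with TTTGAA and -0.33 in the 7 without it. Over the 745 tested genes of the table with both words the median was -0.14, with 61.5% of them lower, and 0.019 without replicate 1 of both groups. Similar values were found for the 480 tested genes with TGACTCA (-0.13, 61.0% lower) and the 4433 with CCAAT (-0.15, 63.5% lower). Over all 18211 genes tested the median was -0.048, with 53.5% lower, and 0.087 without replicate 1 of both groups. That is not a like-for-like baseline, since only 10368 of the tested genes had a promoter in the table. The median of those 10368 was not computed, and whether genes with these words differ from them was not tested.

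Levels are log2 processed intensities minus the array's 75th percentile, so 0 is that percentile and 1 unit is a doubling; levels of different probes are not comparable, and a gene's levels are given for arrays 1, 2 and 3 of each group in that order. The 75th percentile was 135 on p45-/- array 1 and between 339 and 589 on the other arrays. Across the genes tested p45-/- array 1 correlated with the other arrays at 0.782 to 0.884, and the others with each other at 0.941 to 0.984. Nfe2, whose probe has an unknown place relative to the deletion and so does not check the labels, had levels of 4.87, 6.43 and 6.34 in p45-/- against 5.24, 6.57 and 6.33 in WT. Array 1 was the lowest of each group for Nfe2, and the groups overlapped.

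All 31 tested members had a lower mean level in p45-/- than in WT, by small amounts: the differences lay between -0.66 (Anln) and -0.0014 (Ube2c), with a median of -0.35, a 1.27-fold difference; with quantile normalization 24 of the 31 were lower (median -0.23) and with normexp 29 (median -0.40). Over all genes tested 53.5% were lower and the median was -0.048. None of the 31 passed the limma test (adjusted p from 0.704 to 0.999), where 0 genes passed in all (0% called; 1084 genes, 5.95%, had an unadjusted p under 0.05). Among the members 0 had an unadjusted p under 0.05, and the lowest was 0.072 for Incenp; lower genes with such a p were 3.33% of all. A limma fit with the replicate as block called 5 genes in all (0.0275% called) and 0 members, whose lowest adjusted p was then 0.342. In that fit 20.3% of all genes, and 5.96% counted on the lower side, had an unadjusted p under 0.05, and 0 members did. The 95% intervals of all 31 differences held 0, and for 9 members they excluded a halving (a lower bound above -1). With bulk RNA, fewer dividing cells and less RNA of these genes per cell cannot be told apart.

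Complete separation of the groups was seen in 4 of the 31 members, Plk1, Top2a, Incenp and Anln, all lower; over all genes 8.44% were lower and 4.78% higher without overlap. For these 4 the exact permutation test gave its smallest possible p, 0.1 two-sided. The difference was smaller than the range among the 3 WT arrays in 24 of the 31 members. The median range of a member was 0.48 among the WT arrays and 0.51 among the p45-/- arrays.

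**Figure D1:**
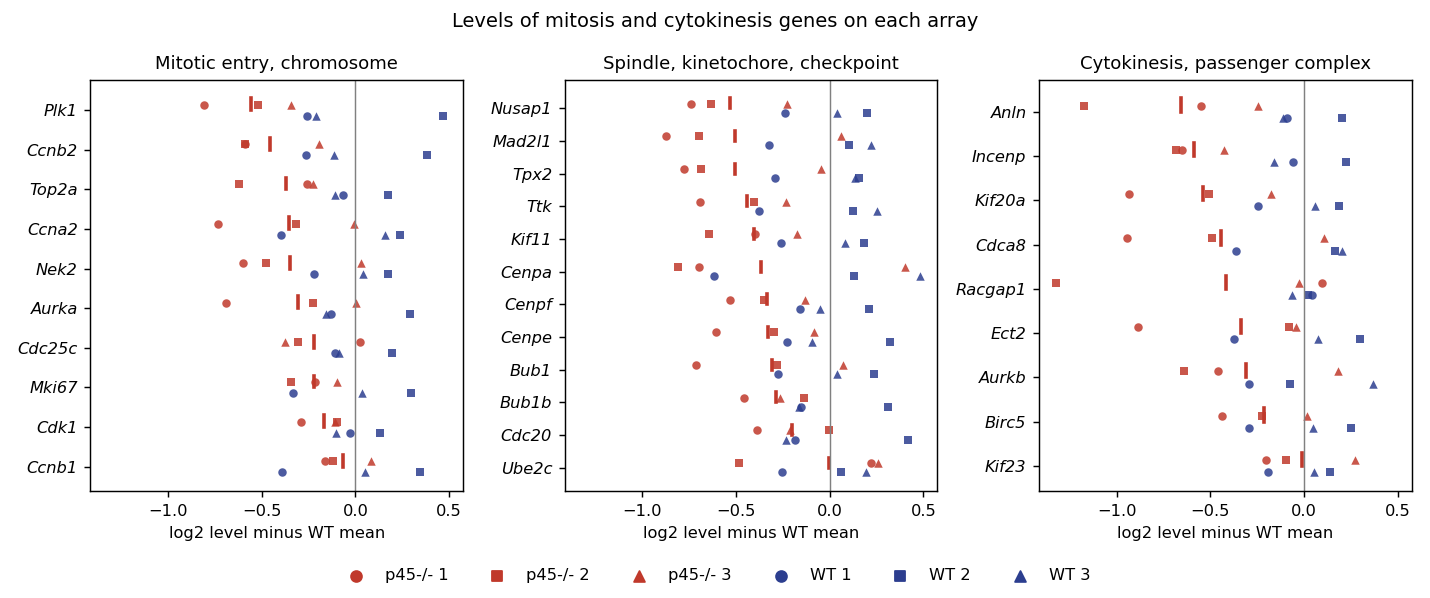
Level of each tested member on each array, on the log2 scale, minus the mean of the 3 WT arrays; circles, squares and triangles are replicates 1, 2 and 3, red is p45-/-, blue is WT and the red bar is the p45-/- mean. The red bars all lie at or left of 0, the groups are apart only for Plk1, Top2a, Incenp and Anln, and the blue square of WT array 2 is the rightmost point for 23 of the 31 members.

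Among the genes of mitotic entry and the chromosome all 10 means were lower (7 with quantile normalization), with a median of -0.33. Plk1, polo-like kinase 1, which drives entry, centrosome maturation and cytokinesis, had levels of 2.96, 3.25 and 3.42 in p45-/- against 3.51, 4.23 and 3.56 in WT. Each p45-/- array lay below each WT array, and WT array 2 stood above the other WT arrays. The difference was -0.56 (SE 0.33, limma adjusted p = 0.704), a 1.47-fold lower mean. Ccnb2, cyclin B2, had levels of 3.88, 3.88 and 4.28 in p45-/- against 4.21, 4.85 and 4.36 in WT. The groups overlapped there through p45-/- array 3, and the difference was -0.46 (SE 0.31, limma adjusted p = 0.704). Top2a, topoisomerase II alpha, which untangles sister chromatids, had levels of 0.76, 0.40 and 0.79 in p45-/- against 0.96, 1.20 and 0.91 in WT. All 3 p45-/- arrays were below the WT arrays, with array 2 the lowest, and the difference was -0.37 (SE 0.28, limma adjusted p = 0.707). Nek2, a centrosome kinase, had levels of 0.27, 0.39 and 0.90 in p45-/- against 0.65, 1.05 and 0.91 in WT, with p45-/- arrays 1 and 2 below the WT range, and a difference of -0.35 (SE 0.31, limma adjusted p = 0.725).

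Ccnb1, cyclin B1, had levels of 2.32, 2.37 and 2.57 in p45-/- against 2.09, 2.83 and 2.53 in WT, all 3 p45-/- arrays within the WT range, with a difference of -0.066 (SE 0.31, limma adjusted p = 0.946). Its 3 probes gave -0.066, -0.069 and -0.078. Cdk1, the mitotic kinase itself, differed by -0.17, and Cdc25c, the phosphatase that activates it, by -0.22. Ccna2, cyclin A2, which acts in S phase and early mitosis, differed by -0.35 and Aurka, Aurora A kinase of the spindle poles, by -0.31. Mki67, the proliferation antigen Ki-67 that coats mitotic chromosomes, differed by -0.22. Cyclin B2 had a larger difference than cyclin B1 in these samples, -0.46 against -0.066, and that contrast between the genes was not tested.

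In the spindle, kinetochore and checkpoint group all 12 means were lower (10 with quantile normalization), with a median of -0.35, and the groups overlapped for each of the 12. Nusap1, a spindle microtubule-binding protein, had levels of 1.19, 1.30 and 1.71 in p45-/- against 1.69, 2.14 and 1.98 in WT. Only p45-/- array 3 reached into the WT range, and the difference was -0.53 (SE 0.30, limma adjusted p = 0.704). Tpx2, which activates Aurora A and nucleates spindle microtubules, had levels of 1.59, 1.69 and 2.32 in p45-/- against 2.08, 2.53 and 2.50 in WT, and the difference was -0.50 (SE 0.33, limma adjusted p = 0.704). Ttk, the Mps1 kinase that starts the checkpoint, had levels of -3.81, -3.52 and -3.35 in p45-/- against -3.50, -3.00 and -2.86 in WT, and the difference was -0.44 (SE 0.31, limma adjusted p = 0.704), which turned to 0.22 with normexp. Mad2l1, the checkpoint inhibitor of Cdc20, had levels of 0.24, 0.42 and 1.17 in p45-/- against 0.79, 1.22 and 1.34 in WT. Its p45-/- array 3 lay within the WT range and its other p45-/- arrays below all WT arrays, with a difference of -0.50 (SE 0.36, limma adjusted p = 0.704).

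The checkpoint kinases Bub1 and Bub1b differed by -0.31 and -0.28, and the second kept probe of Bub1 by 0.47, with 1.71 between the arrays numbered 1 (pair 1) and -0.25 and -0.048 in pairs 2 and 3. The kinetochore genes Cenpe, a plus-end motor, Cenpf and Cenpa, the centromeric histone, differed by -0.33, -0.34 and -0.37, and Kif11, the motor that separates the spindle poles, by -0.41. Cdc20 and Ube2c had the smallest differences of the group. Cdc20 differed by -0.20, and Ube2c, the ubiquitin-conjugating enzyme of the anaphase-promoting complex, by -0.0014 (SE 0.33, 95% interval -0.79 to 0.79). In pairs 1, 2 and 3 Ube2c gave 0.47, -0.54 and 0.063. The levels of Ube2c were 3.1, 2.40 and 3.14 in p45-/- against 2.63, 2.94 and 3.07 in WT, with p45-/- array 2 below the WT range and the other p45-/- arrays just above it.

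In the cytokinesis and passenger group all 9 tested means were lower (7 with quantile normalization), with a median of -0.42. Incenp, the scaffold of the passenger complex, had levels of 4.90, 4.87 and 5.13 in p45-/- against 5.50, 5.78 and 5.39 in WT. The 3 p45-/- arrays were all below the WT arrays with little spread, and the difference of -0.59 (SE 0.27, limma adjusted p = 0.704) had the lowest unadjusted p of the members. Anln, anillin, which ties the contractile ring to the membrane, had levels of -2.25, -2.87 and -1.94 in p45-/- against -1.79, -1.49 and -1.81 in WT. Again each p45-/- array lay below each WT array, with p45-/- array 3 close to WT arrays 1 and 3, and the difference was -0.66 (SE 0.34, limma adjusted p = 0.704), a 1.58-fold lower mean. With normexp the difference of Anln was -0.072. Kif20a, a motor of the central spindle, had levels of 1.92, 2.34 and 2.68 in p45-/- against 2.61, 3.04 and 2.91 in WT, and the difference was -0.54 (SE 0.32, limma adjusted p = 0.704). Cdca8, borealin, had levels of 4.64, 5.09 and 5.69 in p45-/- against 5.22, 5.75 and 5.78 in WT, and the difference was -0.44 (SE 0.37, limma adjusted p = 0.721).

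The other 2 passenger genes, Aurkb (Aurora B kinase) and Birc5 (survivin), differed by -0.31 and -0.21. Kif23, the motor of centralspindlin, had levels of 0.089, 0.20 and 0.56 in p45-/- against 0.10, 0.43 and 0.35 in WT and a difference of -0.010 (SE 0.29, 95% interval -0.70 to 0.68). Racgap1, its GTPase-activating partner, had levels of 0.28, -1.14 and 0.16 in p45-/- against 0.22, 0.20 and 0.12 in WT, so that p45-/- array 2 alone was low and the other 5 arrays lay between 0.12 and 0.28. Its difference of -0.42 (SE 0.44, limma adjusted p = 0.756) came to 0.036 without that array. The second probe of Racgap1 gave -0.17, -0.76 and -0.18 in pairs 1, 2 and 3. Ect2, the exchange factor that switches on RhoA at the cleavage plane and whose loss is known from megakaryocyte polyploidisation, had levels of -0.81, -0.0017 and 0.035 in p45-/- against -0.30, 0.38 and 0.15 in WT, with only p45-/- array 1 below the WT range, and a difference of -0.34 (SE 0.37, limma adjusted p = 0.764).

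The 31 members kept much the same order of arrays. The level was highest on WT array 2 for 23 members, against 15.3% of all genes, and lowest on p45-/- array 1 for 20 members, against 47.3% of all genes. WT array 2 exceeded WT array 1 for 30 members, by a median of 0.44, where the median of all genes was -0.077. Array 3 of p45-/- exceeded array 1 for 29 members, by a median of 0.46, where that of all genes was 0.37. The spread within each group, which the members shared, was thus as large as the differences between the groups.

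Arrays with the same replicate number were set against each other as pairs, since their deviations from the group means correlated (0.647, 0.589 and 0.270 for numbers 1, 2 and 3). Each of p45-/- array 3 and WT array 2 correlated more with the other, at 0.616, than with its partner. The pairing of numbers 2 and 3 is thus unsure, that of number 3 the most. Deviations within a group cancel out, so these correlations depend on each other and cannot establish the pairs. In pair 1 the members had a median of -0.32, with 26 of 31 lower, and all genes a median of -0.37, with 62.8% lower, and 13 of the 31 members lay below the median of all genes. In pair 2 the median was -0.62, with 31 of 31 lower, and that of all genes 0.12, with 41.5% lower. In pair 3, which is also the pair on slide 1, the median was -0.10, with 23 of 31 lower, and that of all genes 0.064, with 42.8% lower; 29 members were below the median of all genes. With this scaling the members were close to all genes in pair 1, below them in pair 2 and slightly below in pair 3. Pair 2 was the most negative of the 3 for 28 members, against 17.5% of all genes.

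In all 3 pairs 21 of the 31 members were lower, against 23.6% of all genes. The 10 that were not were Ccnb1, Cdc25c, Mki67, Aurka, Bub1, Cdc20, Ube2c, Cenpe, Kif23 and Racgap1. Incenp had -0.59, -0.91 and -0.26 in pairs 1, 2 and 3, Anln -0.46, -1.38 and -0.14, Plk1 -0.55, -0.98 and -0.14 and Ccnb2 -0.32, -0.97 and -0.079. Each kept its direction, with the largest size in pair 2 and the smallest in pair 3. Without replicate 1 of both groups all 31 members were lower, with a median of -0.38, where all genes had a median of 0.087 and 41.6% were lower; 0 members passed the test there, with a lowest adjusted p of 0.251. Without p45-/- array 1 alone, 30 members were lower, with a median of -0.22. Where the members lay in pair 1 depended on the scaling: their median was 0.093 against -0.22 for all genes with quantile normalization, with 13 members lower, and -0.47 against 0.036 with normexp, with 23 lower. In pair 2 all 31 were lower with both, at -0.51 against 0.064 and -0.62 against 0.16. In pair 3 the medians were -0.050 against 0.049 and -0.089 against 0.035.

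**Figure D2:**
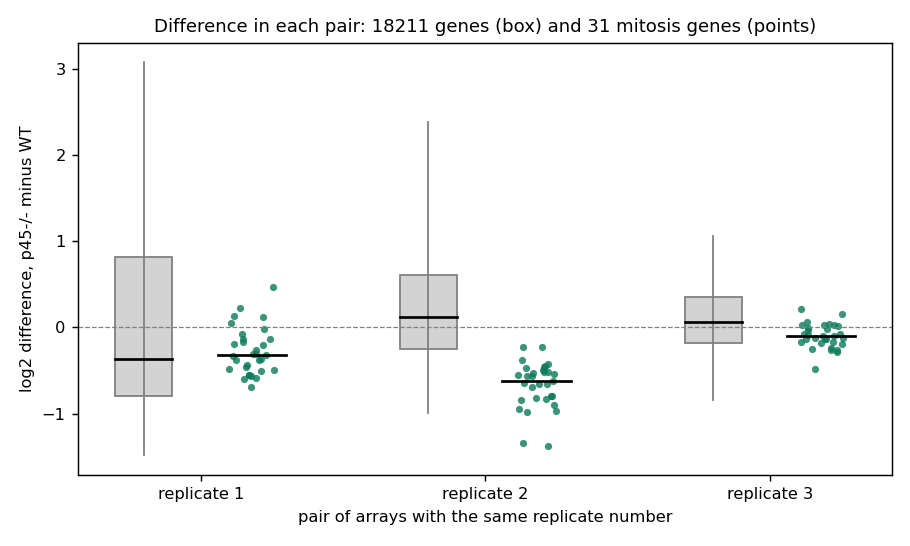
Log2 difference, p45-/- minus WT, in each pair of arrays with the same replicate number; the box spans the 25th to 75th percentile of 18211 genes, the whiskers the 5th to 95th, the points are the 31 members and the black lines are medians. With scaling to the 75th percentile the members sit level with all genes in pair 1 (-0.32 against -0.37; 0.093 against -0.22 with quantile normalization and -0.47 against 0.036 with normexp), below them in pair 2 (-0.62 against 0.12) and slightly below in pair 3 (-0.10 against 0.064).

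Where a member had further probes above background, 10 of 11 were lower in mean, with a median of -0.24, and 11 of 11 in pair 2. The exception in the mean was the second probe of Bub1. The further 5 probes of members were not well above background on all arrays of either group and were left out.

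Other genes of cell division, taken from lists drawn up beside the members, also had lower means in most cases, and 0 of them passed the test with or without the replicate block. Among 20 tested mitotic regulators, 18 had lower means and the median was -0.22 (15 and -0.14 without p45-/- array 1). Foxm1, the transcription factor of the G2 and M programme, had levels of 0.037, 0.17 and 0.62 in p45-/- against 0.59, 1.15 and 0.87 in WT and a difference of -0.59 (SE 0.31, limma adjusted p = 0.704). Mybl2, B-Myb, which acts with it, had levels of 1.86, 0.77 and 0.95 in p45-/- against 0.59, 1.35 and 0.85 in WT, with p45-/- array 1 far above the rest, and a difference of 0.27 (SE 0.40, limma adjusted p = 0.826) that turned to -0.24 with median scaling. Pttg1, securin, did not overlap (it did with quantile normalization, at -0.39) and differed by -0.69, and Cdc25a, a phosphatase of S phase and mitotic entry, by 0.84.

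Of 31 kinetochore and centromere genes 26 were lower, with a median of -0.24 that came to -0.088, with 20 lower, without p45-/- array 1. The lowest p values were those of Zwint, which recruits checkpoint proteins, at -0.88 and Cenpw at -0.48, and on the higher side Cenpn at 0.17 and Cenpq at 0.14. Zwint differed by -0.94, -0.81 and -0.90 in pairs 1, 2 and 3. Cenpn and Cenpq were lower with median scaling, where all 31 were. Of 17 condensin and cohesin genes 17 were lower (14 with quantile normalization), with a median of -0.34 (-0.16 with 14 lower without p45-/- array 1), led by the condensin subunits Ncapd2 at -0.50 and Ncapg at -0.40. Of 24 further spindle motors and assembly factors 20 were lower, with a median of -0.28 (16 lower and -0.12 with normexp; 20 lower and -0.17 without p45-/- array 1).

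In that list Ckap2l, a spindle microtubule protein, had levels of 1.17, 1.35 and 1.53 in p45-/- against 1.95, 2.35 and 2.34 in WT. The groups did not overlap and the 3 pairs gave -0.78, -1.01 and -0.81, with a difference of -0.87 (SE 0.28, limma adjusted p = 0.704). Ckap5, a microtubule polymerase, differed by -0.60, also without overlap, though with normexp it was at -0.15 and the groups overlapped, as they did with median scaling. On the higher side were Stil, of centriole assembly, at 0.11 and Cep55, of abscission, at 0.079, both lower with median scaling. Of 16 subunits and partners of the anaphase-promoting complex 16 were lower (9 with quantile normalization), with a median of -0.23, among them Anapc5 at -0.48 and Cdc26 at -0.49. Their pair medians were -0.60, -0.17 and -0.043, so pair 1 was the most negative there, as it was over all genes. Without p45-/- array 1 the median of this list turned to 0.023, with 6 of 16 lower.

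**Figure D3:**
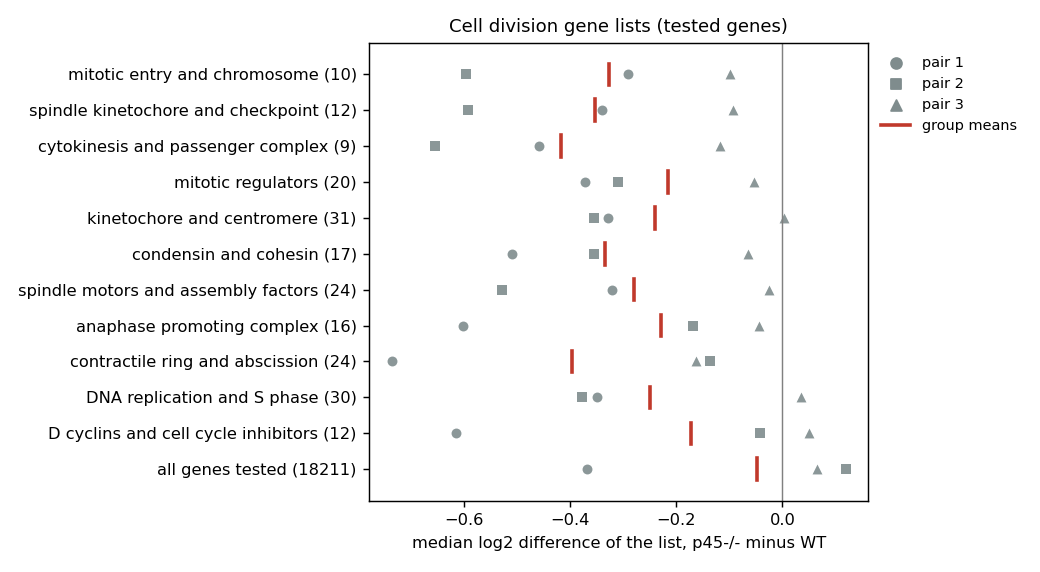
Median log2 difference, p45-/- minus WT, of each list of cell division genes (number of tested genes in brackets) and of all genes; red bars are differences of group means and grey symbols the 3 pairs. The members' 3 role groups lie between -0.33 and -0.42 in group means with pair 2 the most negative, while all genes lie at -0.048 with pair 1 the most negative.

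The contractile ring list held larger differences in both directions. Of its 24 tested genes 21 were lower, with a median of -0.40 (-0.20 with 18 lower without p45-/- array 1). Groups stayed apart for 5 lower and 2 higher genes of the 24, where over all genes 8.44% were lower and 4.78% higher without overlap. The lowest value was that of Myl9, a regulatory light chain of myosin II, named here after its values were seen, with levels of 1.75, 5.74 and 4.72 in p45-/- against 4.29, 8.29 and 7.70 in WT. Array 1 was the lowest of each group, so that the groups overlapped, while the 3 pairs gave -2.54, -2.55 and -2.98. The difference was -2.69 (SE 1.37, limma adjusted p = 0.704), with a limma adjusted p of 0.0512 with the replicate block. That block rests on a pairing taken from these same arrays, which the labels do not state. Myh10, non-muscle myosin IIB, had levels of -1.85, -0.48 and -0.49 in p45-/- against -2.89, -2.32 and -2.14 in WT. It was higher on every p45-/- array, at -0.94 ± 0.79 (SD, n = 3) against -2.45 ± 0.39 (SD, n = 3), a difference of 1.51 (SE 0.47, limma adjusted p = 0.678) or 2.85-fold, with 1.04, 1.84 and 1.65 in the 3 pairs. Myh9, non-muscle myosin IIA, the abundant myosin of platelets, had levels of 6.49, 7.40 and 7.41 in p45-/- against 7.84, 8.43 and 8.29 in WT. It was lower on every p45-/- array, at 7.10 ± 0.53 (SD, n = 3) against 8.19 ± 0.31 (SD, n = 3), a difference of -1.09 (SE 0.37, limma adjusted p = 0.704) or 2.12-fold, with -1.35, -1.03 and -0.88 in the pairs.

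Cit, citron kinase, a midbody kinase, had levels of -1.62, -0.79 and -2.03 in p45-/- against -2.48, -2.58 and -2.89 in WT, all 3 p45-/- arrays above the WT arrays, and a difference of 1.17 (SE 0.39, limma adjusted p = 0.704). Rock2, a kinase that activates myosin II, had levels of -2.98, -3.23 and -2.55 in p45-/- against -2.44, -1.82 and -1.61 in WT, all 3 below, and a difference of -0.97 (SE 0.35, limma adjusted p = 0.704). Myh10, Myh9, Cit and Rock2 had unadjusted p between 0.016 and 0.031, and 0.118 to 0.169 was the range of their adjusted p with the replicate block. Rhoa, the GTPase at the top of the ring, differed by -0.31, and Arhgef2 (GEF-H1), a RhoA exchange factor known to decline in early endomitosis, by -0.21 with levels of 1.58, 2.16 and 2.10 in p45-/- against 2.29, 2.09 and 2.08 in WT. For Rhoa p45-/- arrays 1 and 3 lay below the WT range, and for Arhgef2 array 1. The directions of Myh10, Myh9, Cit and Rock2 held with quantile normalization, median scaling and normexp, though Rock2 came to -0.23 with normexp; the groups overlapped for Myh10 and Cit with median scaling, for Myh10 with quantile normalization and for Rock2 under all 3.

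**Figure D4:**
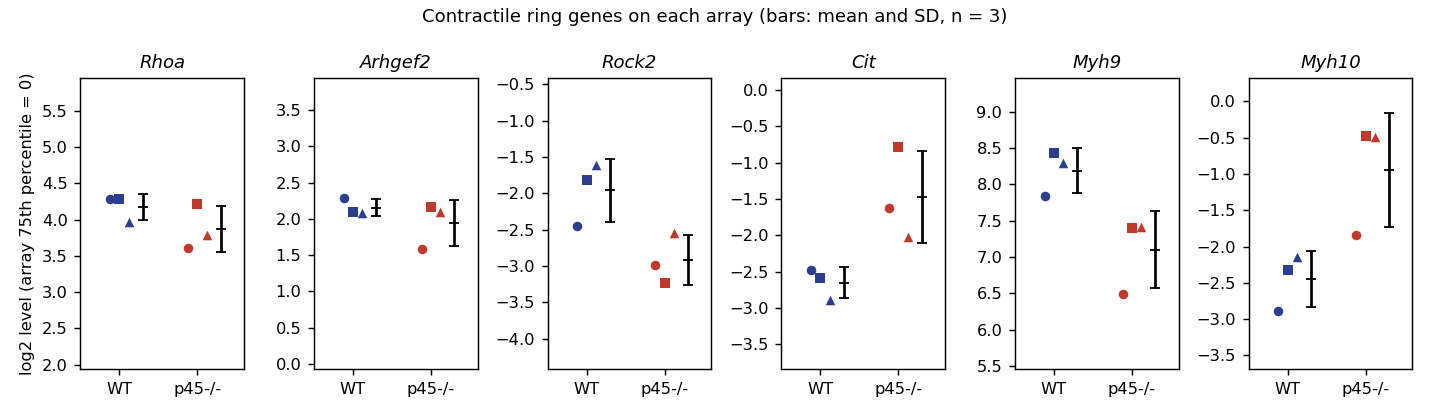
Level of 6 contractile ring genes on each array, on the log2 scale with the array's 75th percentile at 0; each panel spans 4 log2 units, circles, squares and triangles are replicates 1, 2 and 3, and black bars are the mean and SD of 3 arrays. Myh10 and Cit are higher and Myh9 and Rock2 lower on all 3 p45-/- arrays, while Rhoa and Arhgef2 overlap.

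Genes of earlier cell cycle steps had smaller medians than the members, and the difference between lists was not tested. The S phase and replication list had 27 of 30 tested genes lower (17 with quantile normalization), a median of -0.25 (-0.11 with 22 lower without p45-/- array 1) and pair medians of -0.35, -0.38 and 0.034. Lig1, the replicative DNA ligase, and E2f1 differed by -0.43 and -0.43 without overlap, and Orc1, of the origin recognition complex, on the higher side, by 0.34. Of 12 tested D cyclins and inhibitors 7 were lower, with a median of -0.17 and pair medians of -0.62, -0.042 and 0.049, and without p45-/- array 1 the median turned to 0.080, with 4 lower. In that list Rbl1 (p107) differed by -0.42, Cdkn1b (p27) by -0.37, Ccnd2 by 0.37 and Cdkn1c (p57) by 0.46. With median scaling Orc1, Ccnd2 and Cdkn1c were lower, as were all genes of both lists.

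Marker lists of the cell types such cultures could hold are given beside the members; the summed signals of every list overlapped between the groups. Of 17 erythroid markers 15 were higher in p45-/-, with a median of 1.62 and pair medians of 1.69, 1.66 and 1.11; their summed signal, in units of the array's 75th percentile, was 519 to 2210 in p45-/- and 399 to 849 in WT. Of 10 granulocyte and macrophage markers 10 were lower (7 with quantile normalization), with a median of -0.57 and a sum of 569 to 1040 against 738 to 1253. Of 12 megakaryocyte markers 10 were lower, with a median of -0.40 and a sum of 956 to 2006 against 1162 to 2012, so the labelled cell type's genes were present on all arrays. Without p45-/- array 1 the megakaryocyte median turned to 0.038, with 4 of 12 lower, and with quantile normalization it was -0.11, with 8 lower. Of 6 tested stem and progenitor markers 4 were lower, with a sum of 24.4 to 95.5 against 30.6 to 35.3, among them Myb at -1.05 and Gata2 at -1.98, while Cd34 was at 1.44. Of 9 hepatocyte markers 9 were higher, with a sum of 53.1 to 183.6 against 42.4 to 72.4, of 11 stromal markers 10 (5 with median scaling), with 29.0 to 58.5 against 49.6 to 55.7, and of 8 mast cell markers 3, with 4.10 to 17.7 against 12.1 to 29.2. In pairs 1, 2 and 3 the hepatocyte medians were -0.17, 1.34 and 1.87 and the stromal medians -0.84, 1.00 and 1.26, so pair 1 went the other way. The mast cell median of -0.52 came to -0.088 without p45-/- array 1, and to 0.017 with normexp, with 4 of 8 lower. With normexp 3 of the 6 stem and progenitor markers were lower, and with median scaling 1 of the 9 hepatocyte markers was. Ttr and Hnf4a (hepatocyte) and Mcpt1 and Mcpt4 (mast cell) were well above background on some arrays only and Mecom (stem cell) on 0, and these were not tested. None of the summed lists was at 0 on any array, and their part in the members' differences was not tested.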

How the data were processed

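Total RNA was labelled with Cy3 and hybridised to single-colour Agilent arrays, per the labels' protocols. Spots were quantified with Agilent Feature Extraction 10.7.3.1, per the file headers (the submitters' processing notes name 10.1). The deposited processed intensity is background-subtracted and detrended within its array and not scaled between arrays, per the file headers; the series' value table, deposited by the authors, holds the same intensity within 0.497%. No genome build of the probes was used. The position of probes along the transcripts is not given in the sources used here.

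From these intensities, flagged spots (32 to 80 per array) were set to missing, spots of a probe averaged, log2 values computed and the 75th percentile of each array's non-control probes subtracted. A probe was kept if either group had it well above background on each of its arrays (23958 of 41174). RefSeq accessions, without versions, named 26690 probes through a gene table of assembly GRCm38.p6. The probe with the highest mean level represented a gene. Groups were compared over 18211 genes with limma 3.58.1 in R 4.3.3 (two-sided, Benjamini-Hochberg, threshold 0.05, 4 residual degrees of freedom). The fit was run on simulated data with independent noise on each array and shifts far larger than the members' differences. That run does not show how differences as small as theirs are recovered. The number of arrays limits precision.

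Deviations of same-numbered arrays from their group means correlated above 0.1 for each number, and on this basis same-numbered samples were treated as pairs. Such correlations depend on each other and do not establish a pairing, and the labels do not state one. Replicate 3 of both groups lay on slide 1, scanned separately from slide 2, which held the other 4 arrays. The members and lists were chosen with earlier results of these data known. Values on every array are given for the 4 members of each role with the lowest unadjusted p, and for those without overlap; up to 2 genes per direction are named from each other list, and 1 gene the rule names is not reported here. Members given on every array outside that rule (Ccnb1, Ube2c, Kif23, Racgap1, Ect2) were chosen after their values were seen, as were the progenitor markers named. The alternatives tried were a replicate block, a slide block, each slide alone, normexp (offset 50, on median signals), quantile and median scaling, the value table, the dim filter, the mean of a gene's probes, array weights and leaving arrays out.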

Additional observations from a re-analysis of the deposited data

How the results depend on the processing

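The median of the members stayed below 0 under every alternative run, and 0 members passed under any. Several alternatives could hardly change that median. The replicate and slide blocks held equal numbers of both groups and so left the differences of the members as they were. The dim filters kept the same probes of the members (median -0.35), and the value table holds the same intensities. With the replicate block 0 members and 5 genes in all passed, and the block changed no other call; 10 genes passed with median scaling, 419 with array weights, 18 without replicate 1 of both groups and 0 to 1 with 1 array left out (the 1 without WT replicate 1). Chosen after seeing the data, the replicate block with median scaling gave 1589 genes and 0 members, and the block gave 0 genes without replicate 1 of both groups and 0 with quantile normalization.

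Median scaling, with or without the block, moved the median of all genes to -0.56 and that of the members to -0.86, and the role medians to -0.84 (entry), -0.86 (spindle) and -0.93 (cytokinesis). Against all genes the members' median lay at -0.30 with either scaling, which was fixed in advance, since the scalings differ only by a constant per array. Within slide 1 the members' median was -0.10 and that of cytokinesis -0.12; within slide 2 cytokinesis was at -0.62, and with 1 array left out it ran from -0.61 to -0.23.

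Single members changed sign, all of them uncalled. With quantile normalization, with or without the block, Ccnb1 was at 0.18, Aurka 0.010, Mki67 0.12, Cdc20 0.12, Ube2c 0.27, Birc5 0.12 and Kif23 0.021, and 24 members were lower. Within slide 1 Ccnb1 was at 0.032, Aurka 0.16, Bub1 0.033, Cdc20 0.023, Ube2c 0.063, Cenpe 0.011, Kif23 0.21 and Racgap1 0.039. With normexp Ttk was at 0.22 and Kif23 at 0.016, with array weights Kif23 at 0.017, and with all probes averaged Bub1 at 0.081. With 1 array left out Ccnb1 ran from -0.26 to 0.11, Cdc20 from -0.32 to 0.0066, Kif23 from -0.15 to 0.087, Racgap1 from -0.67 to 0.036 and Ube2c from -0.13 to 0.24. Dim probes are limited by signal over background, and p45-/- array 1 had the lowest 75th percentile. The members that changed sign with quantile normalization had mean levels from 0.29 (Kif23) to 5.19 (Birc5). Ttk, which changed sign with normexp, had a mean level of -3.34. The changes within slide 1 did not involve p45-/- array 1, which lay on slide 2. The cause of the sign changes was not tested.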
